A study of Mus musculus with 12 samples.

Results

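The genes described here are 8 transcription factors of the endoderm lineage: Gata4, Gata6, Sox17, Sox7, Foxa1, Foxa2, Hnf4a and Foxq1. They were taken as all probes that the arrays list under one of these names, which gave 10 of the 55681 non-control probes and 8 of the 36406 gene names. Sox17 and Foxa2 have 2 probes each and the other members 1. All 10 probes passed the filter on dim probes, which kept 30885 probes and 22593 gene features in all. The rule uses names and no measured values, but the names were listed with earlier results of these data known.

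RNA from mouse embryonic stem cells was labelled with Cy3 and hybridised to 12 one-colour arrays, 4 in each of 3 groups. The WT group is wild-type cells, the Id1KO group lacks Id1, and the Id1KO_Zrf1KD group is the Id1KO line with Zrf1 also depleted by lentiviral hairpins and puromycin selection. Id1 belongs to the helix-loop-helix proteins and holds basic helix-loop-helix activators away from DNA, and Zrf1 is a chromatin-binding J-domain protein that the arrays list as Dnajc2. All cells grew in a serum medium with leukaemia inhibitory factor, which keeps mouse embryonic stem cells undifferentiated. Per the labels, the 4 arrays of a group are independent biological samples, but no separate clones are named, so the spread is that of cultures of 1 line per genotype. A group with a control hairpin is not among those analysed here, and infection and selection cannot be told apart from the depletion of Zrf1. No WT cells depleted of Zrf1 are among the groups.

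In the early mouse embryo, GATA6 drives inner-cell-mass cells towards primitive endoderm, against NANOG, under FGF signalling. GATA4, SOX17 and SOX7 follow it as primitive endoderm matures and splits into parietal and visceral endoderm, and HNF4A and the FOXA factors act in visceral endoderm. Definitive endoderm of the gut arises later, under NODAL, and uses SOX17, FOXA2, FOXA1, GATA4, GATA6 and HNF4A again. FOXA proteins can open closed chromatin ahead of other factors. SOX7 and SOX17 are also known from endothelium, GATA4 and GATA6 from heart, and FOXA2 from the node and notochord.

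The depletion showed in Dnajc2, whose level was at least 1.84 on all WT and 1.80 on all Id1KO arrays and at most -0.15 on the Id1KO_Zrf1KD arrays, a 4.47-fold fall from Id1KO (limma adjusted p = 9.7e-10). Each level is the log2 of a probe's processed signal over the 75th percentile of its array, so 0 is that percentile. Id1 was not lower in Id1KO (0.86 to 1.58) than in WT (0.64 to 1.05). The extent of the deletion is not stated in the labels, so a probe outside it cannot check that label. Of the 10 markers of undifferentiated cells, all were well above background on every array, with Pou5f1 at 6.04 ± 0.20, 5.93 ± 0.38 and 5.74 ± 0.11 in WT, Id1KO and Id1KO_Zrf1KD (SD, n = 4). The share of spots well above background ran from 54.8% to 59.3%, and the 75th percentile was 440.7 to 550.2 signal units for the WT arrays, 393.3 to 491.8 for the Id1KO arrays and 554.0 to 596.5 for the Id1KO_Zrf1KD arrays.

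The upstream sequences of 3 members were taken from RefSeq (build GRCm38.p6), as 250 bases before each listed transcription start: 1 window for Foxa1, 3 for Foxa2 and 2 for Hnf4a. No upstream sequence of Gata4, Gata6, Sox17, Sox7 and Foxq1 was used here. The 3 members were not chosen by their change on depletion of Zrf1, and Hnf4a and Foxa1 rose least of the 8. The windows are shown because letters that the factors themselves, and the partners of Id1, are known to bind can be read in them. Both strands were searched. The letters CANNTG are the E-box of basic helix-loop-helix proteins. The letters AGATAA are bound by the GATA family. The letters GTAAACA are bound by forkhead proteins such as FOXA. The letters ACAAAG are bound by SOX proteins, and TGACTCA by AP-1. Capitals mark every match in the 4 windows that hold any, read 5′ to 3′ on the strand of the gene.
Foxa1, chr12:57546112-57546361, minus strand: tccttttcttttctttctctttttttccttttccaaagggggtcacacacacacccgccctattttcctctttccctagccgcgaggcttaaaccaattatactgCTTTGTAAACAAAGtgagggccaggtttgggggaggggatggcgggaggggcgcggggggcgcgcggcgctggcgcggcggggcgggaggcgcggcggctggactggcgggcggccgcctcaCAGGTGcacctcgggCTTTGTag
Foxa2, chr2:148045465-148045714, minus strand: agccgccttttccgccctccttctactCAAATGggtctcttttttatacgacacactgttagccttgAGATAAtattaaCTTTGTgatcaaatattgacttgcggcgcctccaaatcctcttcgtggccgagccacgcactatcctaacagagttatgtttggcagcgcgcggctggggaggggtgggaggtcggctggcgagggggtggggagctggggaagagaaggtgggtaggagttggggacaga
Hnf4a, chr2:163506607-163506856, plus strand: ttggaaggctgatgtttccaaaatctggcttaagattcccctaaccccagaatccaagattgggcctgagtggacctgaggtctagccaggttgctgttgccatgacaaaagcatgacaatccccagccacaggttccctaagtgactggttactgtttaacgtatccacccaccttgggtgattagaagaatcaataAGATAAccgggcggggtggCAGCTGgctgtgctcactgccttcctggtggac
Hnf4a, chr2:163546905-163547154, plus strand: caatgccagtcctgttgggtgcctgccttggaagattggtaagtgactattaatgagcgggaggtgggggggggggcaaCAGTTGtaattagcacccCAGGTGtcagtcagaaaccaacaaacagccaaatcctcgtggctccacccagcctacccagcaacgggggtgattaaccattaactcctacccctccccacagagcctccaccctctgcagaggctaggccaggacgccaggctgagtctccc
The Foxa1 window holds a forkhead match, GTAAACA, that overlaps a SOX match at each end, with a further SOX match and an E-box nearer the start site. The third Foxa2 window holds an E-box, a GATA and a SOX match, and the first and second hold none. The first Hnf4a window holds a GATA match and an E-box, and the second holds 2 E-boxes. Among all 32851 windows of the same length, 66.2% hold the E-box letters, 9.99% the GATA letters, 3.17% the forkhead letters, 16.5% the SOX letters and 4.46% the AP-1 letters, which none of the 6 windows holds. A match is a description of letters and not a measured site.

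After depletion of Zrf1 in Id1KO cells, all 8 endoderm factors rose, by 1.81-fold (Hnf4a) to 6.43-fold (Foxa2). Each was higher on every Id1KO_Zrf1KD array than on every Id1KO array. The median log2 fold change of the 8 was 1.77, against -0.09 for all features. In this comparison 32.3% of all features were called higher, 72.1% were called in either direction (limma, Benjamini-Hochberg adjusted p under 0.05), and 39.8% were called lower. No overlap between the groups was seen for 67.1% of all features, 30.6% higher and 36.5% lower. A direction is therefore common in these data, and the sizes say more than the calls. Of all 22593 features, 1620 were called and at least 2-fold higher, and 2978 were called and at least 2-fold lower. All members but Foxa1 and Hnf4a rose more than 2-fold.

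The factors split between Id1KO and WT, groups for which no separate clones are named, so that a difference between lines and the deletion of Id1 cannot be told apart. In Id1KO, Sox7, Foxa2 and Foxq1 were higher, Hnf4a, Foxa1 and Gata4 were lower, and Gata6 and Sox17 did not pass the test. This is 6 of 8 members called, where 72.0% of all features were called, 42.5% higher and 29.6% lower. The same 6 did not overlap between the groups, as did 65.8% of all features, 38.3% higher and 27.5% lower. The members' median log2 fold change was 0.05, and that of all features 0.15. With quantile normalization between arrays these medians became -0.06 and 0.02, so the sign of the members' median depends on the scaling.

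Against WT, the Id1KO_Zrf1KD cells had 6 factors higher and 2 lower. The 6 were Foxa2, Sox7, Foxq1, Gata6, Sox17 and Gata4, and the 2 were Hnf4a and Foxa1. Over all features, 32.4% were called higher, 32.2% lower and 64.6% in either direction. No overlap between the groups was seen for 7 members, all but Foxa1, and for 60.9% of all features, 30.7% higher and 30.2% lower. The members' median log2 fold change was 1.65, against -0.02 for all features. The 3 comparisons share their samples in pairs and are not independent of each other.

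**Figure D1:**
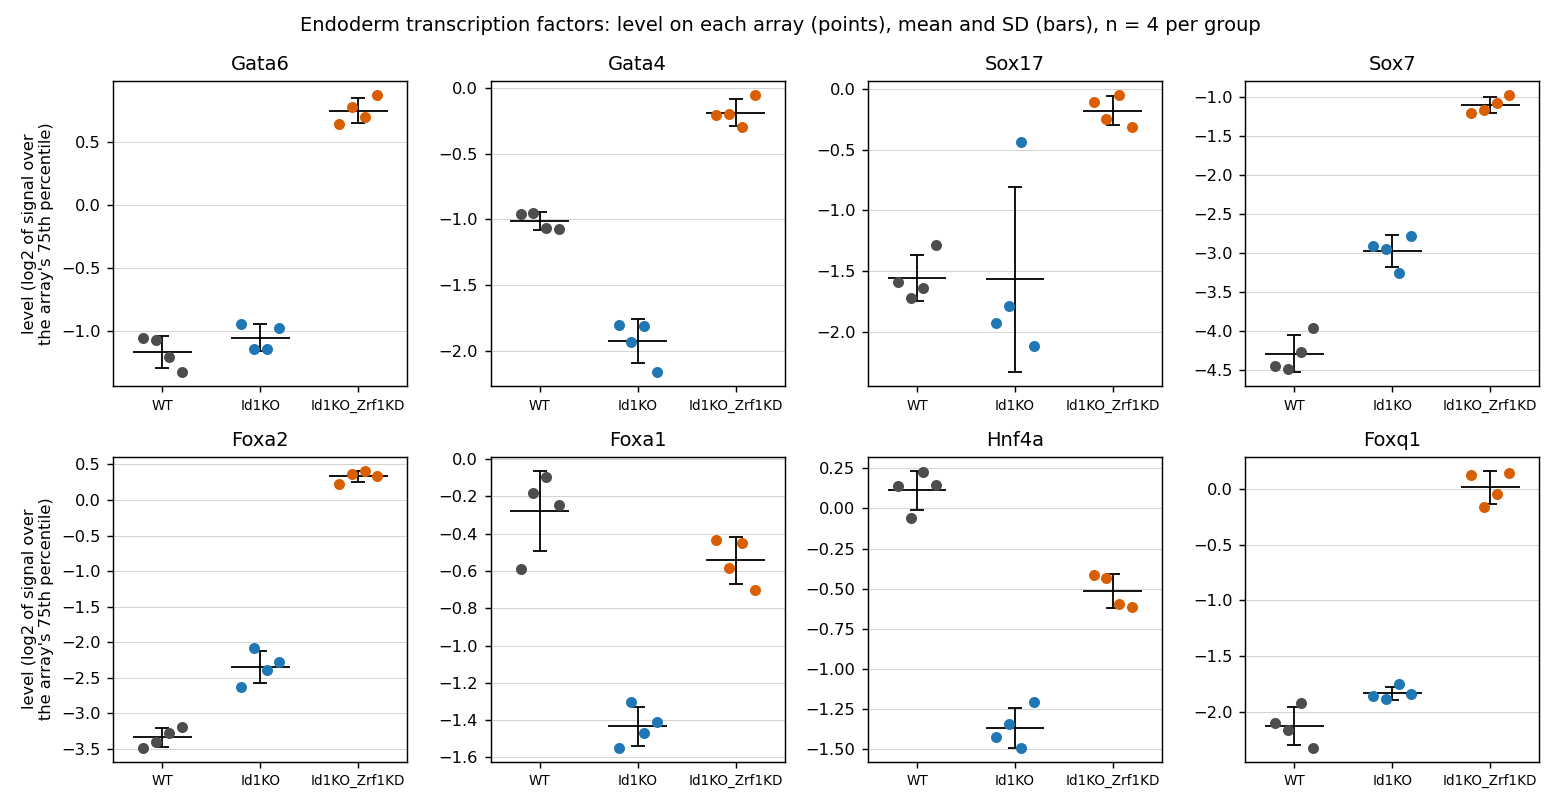
Level of each member on each array (y axis, log2 of signal over the 75th percentile of the array, brightest probe) in the 3 groups (x axis). Points are arrays, horizontal lines the group means and vertical bars the SD (n = 4); all 8 members are higher in Id1KO_Zrf1KD than in Id1KO, and Id1KO replicate 3 stands at -0.44 for Sox17.

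Gata6 encodes the GATA factor that starts the primitive endoderm programme. Its level was -1.06, -1.07, -1.21 and -1.33 on the WT arrays, -0.94, -1.14, -1.14 and -0.98 on the Id1KO arrays and 0.65, 0.78, 0.70 and 0.88 on the Id1KO_Zrf1KD arrays. The WT and Id1KO arrays overlap, and all Id1KO_Zrf1KD arrays lie above both. Gata6 rose 3.50-fold from Id1KO to Id1KO_Zrf1KD (log2 1.81, SE 0.08, limma adjusted p = 5.6e-09). Between Id1KO and WT the log2 difference was 0.11 (95% confidence interval -0.06 to 0.29, limma adjusted p = 0.21).

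Gata4 encodes a GATA factor of primitive and visceral endoderm and of the heart, and its probe lies at chr14:63817858-63817917 (mm9, minus strand). Its level was -0.96, -0.95, -1.07 and -1.07 in WT, -1.81, -1.93, -1.81 and -2.16 in Id1KO, and -0.21, -0.20, -0.30 and -0.05 in Id1KO_Zrf1KD. The 3 groups do not overlap, and Id1KO is the lowest. Gata4 fell 1.89-fold from WT to Id1KO (log2 -0.91, SE 0.08, limma adjusted p = 1.7e-06). It rose 3.34-fold from Id1KO to Id1KO_Zrf1KD (log2 1.74, adjusted p = 1.2e-08) and stood 1.77-fold above WT (adjusted p = 5.0e-06). It thus changed in both steps, in opposite directions.

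Sox17, an endoderm factor of the SOXF family, has 2 probes on chromosome 1, and they differ in 1 array. On the brighter probe (chr1:4481503-4481562, mm9, minus strand) the level was -1.59, -1.72, -1.63 and -1.28 in WT, -1.93, -1.79, -0.44 and -2.11 in Id1KO, and -0.11, -0.25, -0.05 and -0.31 in Id1KO_Zrf1KD. Id1KO replicate 3 was far above the other 3 Id1KO arrays. On the second probe (chr1:4481038-4481097) the same array read -2.61, the lowest of the Id1KO group, whose other arrays read -2.51, -2.53 and -2.36. The WT arrays read -2.09, -2.05, -1.98 and -2.03 there, and the Id1KO_Zrf1KD arrays -1.14, -1.17, -0.89 and -1.15. The groups of the second probe are fully apart, in the order Id1KO, WT, Id1KO_Zrf1KD.

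The rise of Sox17 from Id1KO to Id1KO_Zrf1KD was 2.62-fold on the brighter probe (log2 1.39, SE 0.30, limma adjusted p = 0.0015) and 2.67-fold on the second (log2 1.41, adjusted p = 2.2e-08). The difference between Id1KO and WT depends on the probe and on the 1 array. It was -0.01 on the brighter probe (95% confidence interval -0.67 to 0.65, limma adjusted p = 0.98) and -0.46 on the second (adjusted p = 1.6e-04). Without Id1KO replicate 3 the brighter probe gave -0.39 (limma adjusted p = 0.013), while leaving out each other array gave -0.06 to 0.17, with adjusted p of 0.63 to 0.98. That array stood apart in the authors' deposited log2 values too, at 8.60 against 7.21 to 7.47 on the other Id1KO arrays. Within slides, the Id1KO to Id1KO_Zrf1KD difference was 0.23 on the slide that holds this array and 1.86 and 1.81 on the other slides.

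Sox7 encodes a second SOXF factor, used in parietal endoderm, with a probe at chr14:64569419-64569478 (mm9, plus strand). It was lowest in WT and highest in Id1KO_Zrf1KD, at -4.45, -4.49, -4.28 and -3.97 in WT, -2.92, -2.96, -3.26 and -2.78 in Id1KO, and -1.21, -1.16, -1.07 and -0.97 in Id1KO_Zrf1KD. No groups overlap. The WT signals, 20.2 to 34.2 units, are close to the dimmest probes well above background on those arrays (15.4 to 19.7 units). Sox7 rose 2.49-fold from WT to Id1KO (limma adjusted p = 2.6e-06) and a further 3.67-fold on depletion of Zrf1 (adjusted p = 1.7e-07), 9.14-fold in all. Its direction and call were the same with every other scaling, but the folds were as low as 1.33, 2.20 and 3.56.

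Foxa2 encodes the forkhead factor of visceral and definitive endoderm and of the node. Its brighter probe (chr2:147868669-147868728, mm9, minus strand) read -3.48, -3.40, -3.27 and -3.20 in WT, -2.63, -2.09, -2.39 and -2.27 in Id1KO, and 0.23, 0.37, 0.41 and 0.33 in Id1KO_Zrf1KD. The groups are apart, and the gap below Id1KO_Zrf1KD is the wider one. Foxa2 rose 1.99-fold from WT to Id1KO (log2 0.99, SE 0.11, limma adjusted p = 7.2e-06), then 6.43-fold on depletion of Zrf1 (log2 2.68, adjusted p = 3.0e-09), and 12.8-fold from WT to Id1KO_Zrf1KD. With other scalings these folds were as low as 1.30, 3.99 and 6.03, each still called.

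The second Foxa2 probe (chr2:147868614-147868673) overlaps the first by a few bases and is far dimmer. No WT or Id1KO array had it well above background. All 4 Id1KO_Zrf1KD arrays did, at -2.89, -2.97, -3.23 and -3.26. It passed the filter through Id1KO_Zrf1KD alone and so had to be higher there, and its values are a description with no test. By this probe Foxa2 was at least 2.67-fold higher in Id1KO_Zrf1KD than in Id1KO and at least 3.61-fold higher than in WT. "At least" means against the lowest signal well above background on each array of the dim group, on the scale of the processed signal.

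**Figure D2:**
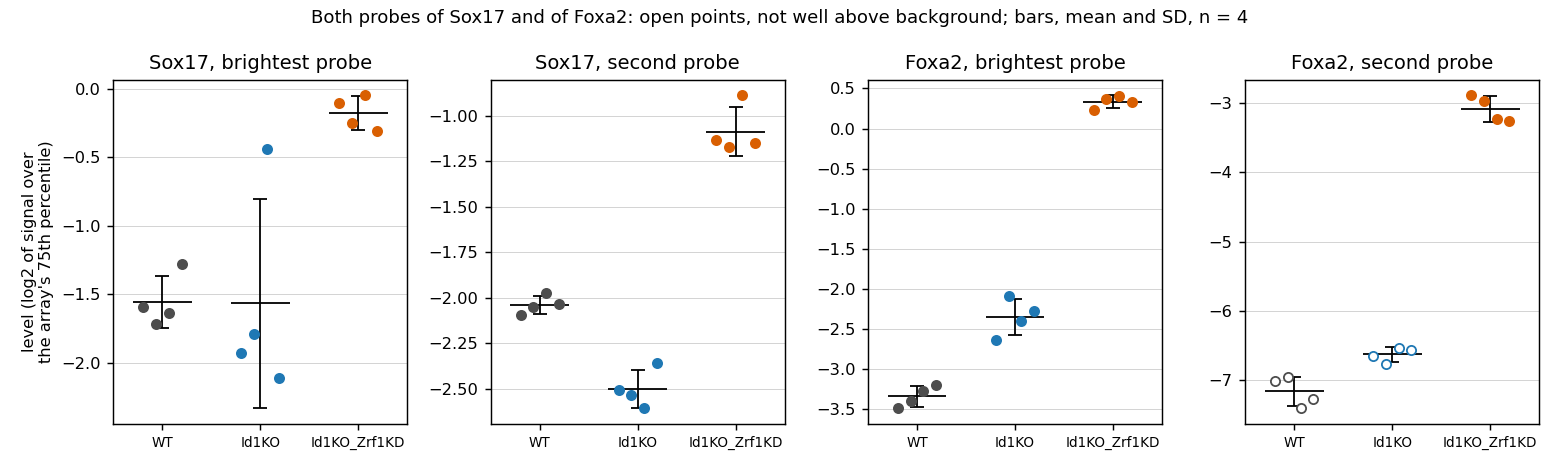
Level on each array (y axis, log2 of signal over the 75th percentile of the array) for both probes of Sox17 and of Foxa2 in the 3 groups (x axis); bars are the mean and SD (n = 4). Id1KO replicate 3 is at -0.44 on the brighter Sox17 probe and at -2.61 on the second, and open points mark the 8 WT and Id1KO arrays on which the second Foxa2 probe was not well above background.

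Foxa1 encodes a forkhead factor close to FOXA2, expressed later in endoderm. Its level (probe at chr12:58641764-58641823, mm9, minus strand) was -0.59, -0.18, -0.10 and -0.24 in WT, -1.55, -1.30, -1.47 and -1.41 in Id1KO, and -0.44, -0.59, -0.45 and -0.70 in Id1KO_Zrf1KD. Id1KO lies below both other groups, which overlap. Foxa1 fell 2.23-fold from WT to Id1KO (log2 -1.16, SE 0.11, limma adjusted p = 1.8e-06) and rose 1.85-fold on depletion of Zrf1 (log2 0.89, adjusted p = 1.7e-05), the opposite of Foxa2 in the first step and the same direction in the second.

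The Foxa1 level in Id1KO_Zrf1KD was 1.20-fold below WT, a call near the threshold (log2 -0.27, limma adjusted p = 0.045). It was lost without WT replicate 2, 3 or 4, without Id1KO replicate 1, 3 or 4, and without Id1KO_Zrf1KD replicate 2 or 4 (adjusted p of 0.050 to 0.12). Within slides the log2 difference was 0.02, -0.40 and -0.28. Over all alternatives the adjusted p ran from 0.0025 to 0.12.

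Hnf4a encodes a nuclear receptor of visceral endoderm and liver that drives apolipoprotein and transport genes. Its level (probe at chr2:163398548-163398607, mm9, plus strand) was 0.14, -0.06, 0.23 and 0.15 in WT, -1.43, -1.34, -1.49 and -1.21 in Id1KO, and -0.42, -0.43, -0.60 and -0.61 in Id1KO_Zrf1KD. The groups do not overlap, with WT the highest. Hnf4a fell 2.79-fold from WT to Id1KO (log2 -1.48, SE 0.08, limma adjusted p = 2.9e-08). It rose 1.81-fold on depletion of Zrf1 (log2 0.85, adjusted p = 2.8e-06) and stayed 1.54-fold below WT (adjusted p = 3.9e-05).

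Foxq1 encodes a forkhead factor outside the FOXA group, known from foregut epithelium and from mesenchymal change in epithelial cells. Its level (probe at chr13:31652206-31652265, mm9, plus strand) was -2.11, -2.17, -1.92 and -2.33 in WT, -1.86, -1.89, -1.75 and -1.84 in Id1KO, and 0.13, -0.16, -0.05 and 0.15 in Id1KO_Zrf1KD. WT and Id1KO nearly touch, and Id1KO_Zrf1KD stands apart. Foxq1 rose 3.61-fold on depletion of Zrf1 (log2 1.85, SE 0.09, limma adjusted p = 1.6e-08) and was 4.43-fold above WT. The small difference between Id1KO and WT (log2 0.30, limma adjusted p = 0.014) was lost after quantile normalization of the arrays (0.14, limma adjusted p = 0.19) and in the authors' deposited log2 values (0.10, limma adjusted p = 0.29).

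By their own tests, Sox7 and Foxa2 rose in both steps. Gata6 rose in the second step and did not pass the test in the first, and Foxq1 passed in the first with some scalings. Gata4, Foxa1 and Hnf4a fell from WT to Id1KO and rose on depletion of Zrf1, ending above WT, near WT and below WT, and Sox17 followed the order of Gata4 on its second probe. In bulk RNA, a change in the share of cells that express a factor and a change in its RNA per cell cannot be told apart.

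**Figure D3:**
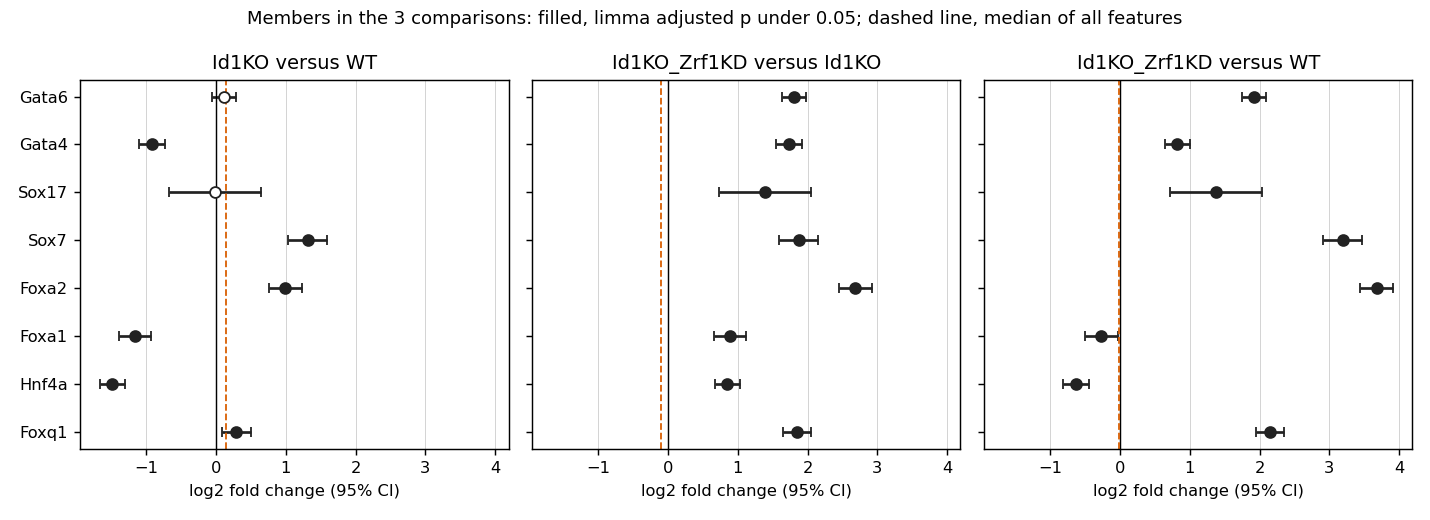
Log2 fold change of each member (x axis) with its 95% confidence interval in the 3 comparisons, from limma over all features. Filled points have an adjusted p under 0.05, open points do not, and the dashed line is the median of all features (0.15, -0.09 and -0.02); in the middle panel all 8 intervals lie above 0.

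The genes that these factors are known to act with or on were followed by lists chosen by name. A listed gene that passed the filter on dim probes through Id1KO_Zrf1KD alone, such as Cdx2, Afp or Ttr, had to be higher there, so the counts describe the tested genes and not whole lists. Extra-embryonic endoderm targets, which include basement membrane genes and visceral transport genes, followed the members in the second step. From Id1KO to Id1KO_Zrf1KD, 24 of 25 tested genes rose and 0 fell, with a median log2 fold change of 1.53, against -0.09 over all features and 32.3% of them called higher. Over the other scalings 22 to 25 rose. The gene that did not pass, named after its value was seen, was Apoe (0.02, limma adjusted p = 0.86). Thbd, thrombomodulin, which parietal endoderm makes, rose 17.5-fold (limma adjusted p = 1.1e-11). Lama1 and Lamb1, laminin chains of Reichert's membrane, rose 5.01-fold and 2.88-fold, and Sparc, a matrix protein, rose 2.89-fold. In Id1KO against WT, 11 of the 25 were higher and 12 lower, so the list moved in both directions. Among the lower were Thbd at 3.35-fold lower and Lama1 at 1.91-fold lower. Among the higher, named after their values were seen, were Dab2, Cubn, Amn and Lrp2, each called higher with every scaling. From WT to Id1KO their mean levels went from -2.95 to -0.61 (Dab2), -0.51 to 1.39 (Cubn), -1.04 to 0.60 (Amn) and 0.84 to 2.27 (Lrp2). The median log2 fold change of the 25 in Id1KO against WT was -0.05, and 0.10 with normexp background correction, so it has no settled sign. In Id1KO_Zrf1KD against WT, 22 were higher and 3 lower.

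Afp, Apob and Ttr, secreted proteins of visceral endoderm, are named here after their values were seen. No WT array had any of them well above background, and all 4 Id1KO_Zrf1KD arrays did. They were at least 1.35-fold (Afp), 16.0-fold (Apob) and 3.26-fold (Ttr) higher in Id1KO_Zrf1KD than in WT with no test given. With the other scalings these folds were as low as 1.24, 4.32 and 1.60. Apob already stood higher in Id1KO than in WT, with mean levels of -6.50 in WT, -3.01 in Id1KO and -0.94 in Id1KO_Zrf1KD. Against Id1KO, the log2 difference ran down to -0.04 for Afp and 0.20 for Ttr over the scalings, with limma adjusted p up to 0.60 and 0.20, so neither has a settled rise there.

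Definitive and gut endoderm genes were mixed. Of 21 genes, 13 could be tested, and from Id1KO to Id1KO_Zrf1KD 7 rose and 3 fell, with a median of 0.20. Eomes, a T-box factor upstream of definitive endoderm and also used in trophoblast, rose 1.79-fold (limma adjusted p = 5.5e-06). Otx2, a homeobox factor of epiblast and anterior endoderm, fell 2.16-fold (adjusted p = 1.2e-08) after a 6.71-fold rise from WT to Id1KO, and Epcam, an epithelial adhesion gene, fell 1.62-fold. Cdx2, a factor of hindgut and trophoblast, was not well above background in WT or Id1KO and was at least 3.55-fold higher in Id1KO_Zrf1KD than in Id1KO, given with no test for the reason above. That bound is for the processed signal, and the difference was 1.73-fold with normexp background correction. The 8 genes not tested, Alb, Cer1, Mixl1, Nkx2-1, Onecut1, Pdx1, Prox1 and Shh, did not pass the filter on dim probes in any group. In Id1KO against WT, 5 of the 13 were higher and 4 lower, and in Id1KO_Zrf1KD against WT, 5 and 3.

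Paralogues and partners of the members mostly rose from Id1KO to Id1KO_Zrf1KD, where 9 of 13 rose and 3 fell. Their median log2 fold change was 1.03, but 0.40 with normexp background correction and 0.60 in the authors' deposited values. Gata3, a GATA factor of trophoblast, rose 6.31-fold (limma adjusted p = 4.9e-08), or 2.47-fold at the lowest of the scalings. Zfpm1, which encodes the GATA cofactor FOG1, rose 2.70-fold (adjusted p = 1.4e-09), Klf5, a zinc-finger factor of the blastocyst, 2.71-fold, and Sall4, a zinc-finger factor of pluripotent cells, 1.60-fold. In Id1KO against WT, 1 of 13 was higher, 6 were lower and 6 did not pass the test. Gata3 was then 6.95-fold lower (2.65-fold at the lowest of the scalings) and Zfpm1 4.04-fold lower. In Id1KO_Zrf1KD against WT, 4 were higher and 5 lower.

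Upstream FGF and NODAL inputs did not move as 1 group. From Id1KO to Id1KO_Zrf1KD, 6 of 12 rose and 2 fell, with a median of 0.11. Fgf4, the growth factor that supports primitive endoderm from the epiblast side, fell 2.25-fold (limma adjusted p = 9.7e-10), after a 1.75-fold fall from WT to Id1KO. Tdgf1, the NODAL co-receptor also called Cripto, fell 1.94-fold, having been 1.72-fold higher in Id1KO than in WT. Grb2, the adaptor of FGF receptors, rose 1.65-fold and Fgfr2 1.67-fold. In Id1KO against WT, 3 of the 12 were higher and 8 lower, and in Id1KO_Zrf1KD against WT, 4 and 7.

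Markers of other cell types were read beside the members, because several rose with them. All 11 fibroblast or feeder markers rose from Id1KO to Id1KO_Zrf1KD, with a median log2 fold change of 1.998. Lox, an enzyme that cross-links collagen, rose 11.6-fold (6.17-fold at the lowest of the scalings), Col1a2 7.26-fold, Fbln2 7.02-fold and Acta2 3.99-fold (limma adjusted p of 6.1e-12 to 6.4e-11). The log2 of their summed signal ran from 6.86 to 6.99 over the WT arrays, from 6.51 to 6.56 over the Id1KO arrays and from 7.79 to 7.81 over the Id1KO_Zrf1KD arrays, and all 11 were well above background on every Id1KO_Zrf1KD array. The members' own summed signal, on the same scale, lay at 1.79 to 1.91, 1.23 to 1.48 and 2.90 to 2.95. The part of fibroblast or feeder cells in the rise of the endoderm factors was not tested.

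Trophoblast markers, of which Cdx2, Eomes, Gata3 and Hand1 also stand in other lists here, rose too. All 9 tested of 10 rose from Id1KO to Id1KO_Zrf1KD, with a median of 1.73 (0.79 and 8 called with normexp background correction). Cdx2 among them passed the filter through Id1KO_Zrf1KD alone and had to be higher there. The summed signal of the 9 ran from 5.50 to 5.62 in WT, from 4.94 to 5.02 in Id1KO and from 5.91 to 5.95 in Id1KO_Zrf1KD. Tead4, a factor of early trophoblast, rose 5.05-fold (3.13-fold at the lowest of the scalings). Krt8 and Krt18, keratins of simple epithelia that primitive endoderm also makes, rose 3.32-fold and 1.94-fold (limma adjusted p = 1.6e-09 and 8.9e-09). Elf5, which defines trophoblast, did not pass the filter in any group. In Id1KO against WT, 8 of the 9 were lower and 0 higher, and 8 of the 11 fibroblast markers were lower and 1 higher. The members split in the same comparison, with Gata4, Foxa1 and Hnf4a lower and Sox7, Foxa2 and Foxq1 higher. Gata6 and Sox17 did not pass the test there. The part of trophoblast-like cells in these changes was not tested.

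The other tissues known for SOXF, GATA and FOXA2 expression gave no common direction from Id1KO to Id1KO_Zrf1KD. Of 6 endothelial markers tested of 9, 4 rose and 2 fell, or 2 and 2 with normexp background correction. Flt1, a VEGF receptor, rose 3.77-fold, while Kdr, another VEGF receptor, fell 2.71-fold (limma adjusted p = 1.5e-08 and 3.3e-08), and Pecam1 rose 1.24-fold. Sox18 was 1.59-fold lower, a call lost in at least 1 of the scalings (1.05-fold, limma adjusted p up to 0.32). Cdh5, Erg and Emcn, which define endothelium, did not pass the filter in any group. Of 4 cardiac markers tested of 8, 3 rose and 1 fell, or 2 and 0 in the authors' deposited values, and Hand2, Isl1, Mef2c and Tbx5 did not pass the filter. Of 5 mesoderm, node and notochord markers tested of 8, 2 rose and 1 fell, or 2 and 2 with normexp background correction, with Tbx6, a factor of presomitic mesoderm, 2.70-fold lower (1.50-fold at the lowest of the scalings) and Mesp1, Msgn1 and Noto not passing the filter.

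Markers of undifferentiated cells also split, with 5 of 10 higher and 4 lower in Id1KO_Zrf1KD than in Id1KO. Esrrb, a nuclear receptor of the naive state, rose 1.57-fold and Nanog, the opponent of GATA6, 1.29-fold, while Fgf4 and Tdgf1 fell as above. Esrrb and Nanog had both fallen from WT to Id1KO. Mean levels in WT, Id1KO and Id1KO_Zrf1KD were 6.44, 5.70 and 6.35 for Esrrb and 7.55, 6.54 and 6.91 for Nanog. Nanog thus stayed below WT in Id1KO_Zrf1KD. Dppa5a was 1.59-fold lower (limma adjusted p = 2.2e-06), and this call was lost in at least 1 of the scalings (adjusted p up to 0.12). Pou5f1 did not pass the test (log2 -0.18, limma adjusted p = 0.36). The summed signal of the 10 lay at 10.2 to 10.4 in WT and in Id1KO and at 9.91 to 9.93 in Id1KO_Zrf1KD. Dppa5a was the brightest of the 10 and weighs most in this sum. Its mean levels were 9.03, 9.53 and 8.87 in WT, Id1KO and Id1KO_Zrf1KD. Of the 10, 3 were higher and 6 lower in Id1KO than in WT (median log2 fold change -0.48). Between Id1KO_Zrf1KD and WT, 1 was higher and 7 were lower.

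**Figure D4:**
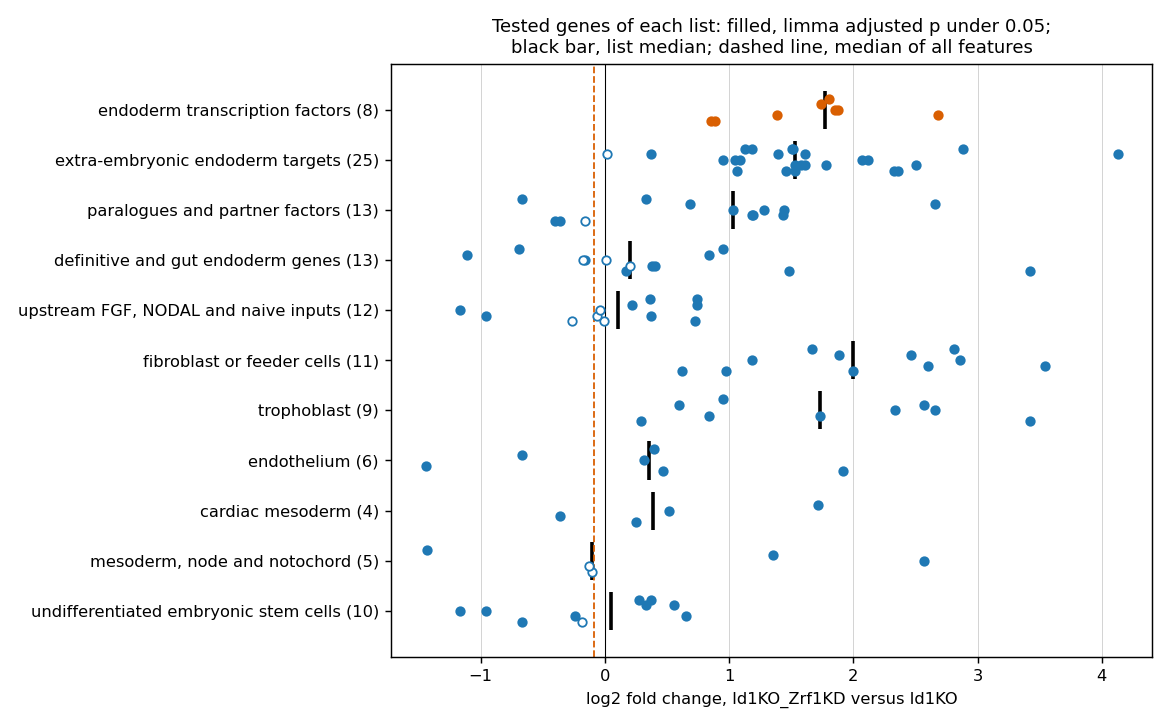
Log2 fold change from Id1KO to Id1KO_Zrf1KD (x axis) of every tested gene in each list (rows, number of tested genes in brackets). Genes that passed the filter through Id1KO_Zrf1KD alone, such as Cdx2, are plotted too and had to be higher there. Points are genes, filled where the limma adjusted p is under 0.05, black bars are list medians and the dashed line is the median of all features (-0.09); the members, the extra-embryonic endoderm targets and the fibroblast and trophoblast markers lie mostly to the right of 0.

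Among 13539 features with a gene symbol, the profiles most like each member over the 12 arrays were read by Pearson's r, as a description that rests mainly on the 3 group means. For Gata6 they were Abcb1a (r = 0.997), Ankrd1 (0.996) and Mmp13 (0.995), and for Gata4 Acad11 (0.995), Apbb2 (0.994) and Col4a2 (0.993), a basement membrane collagen. For Sox17, where 1 array stands apart, r was lower, with Crim1 (0.960), Samd5 (0.953) and Has1 (0.952). Sox7 was nearest to Il6 (0.996), Ptar1 (0.995) and Maml1 (0.994), and Foxa2 to Epc2 (0.999), Phldb2 (0.997) and Flrt3 (0.997). Among the nearest to Foxa1 were Wbp2nl (0.988) and Arhgap23 (0.983), to Hnf4a She (0.994), Sgpp1 (0.991) and Rhbdf1 (0.990), and to Foxq1 Tead1 (0.995), Msc (0.994) and Cpsf4l (0.994). After each group's mean was taken out, r with the member lay between 0.50 (Mmp13) and 0.93 (Epc2). The genes were picked by r over the same arrays, so these values are no separate support. For Sox17, Id1KO replicate 3 weighs most in them.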

How the data were processed

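Total RNA of 12 samples was measured on one-colour arrays. Per the file headers, Agilent Feature Extraction 10.7.3.1 made the deposited scanner files, which hold the intensity of each spot: its mean, the local background, and a processed signal, which has the background subtracted and carries no scaling between arrays. Flags of 0 or 1 mark spots above background, saturated or uneven. Probe positions are the files' own (mm9); whether a probe lies in coding or untranslated sequence was not analysed here. The authors also deposited log2 values with a median of 6.55 in every column; its background correction and scaling are not given in the sources used here.

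The log2 of each processed signal minus the 75th percentile of its array was averaged over each probe's spots that carry no outlier flag. Probes well above background on at least 50% of spots on all 4 arrays of a group were kept, and the brightest stood for its gene. Groups were compared with limma 3.58.1 (R 4.3.3) in 1 fit over 12 arrays, two-sided, with Benjamini-Hochberg adjustment over all 22593 features and a threshold of 0.05. The code was tested on simulated data. The number of arrays limits the precision. Arrays came from 3 slides, each with all groups.

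All members and probes are named, with up to 4 genes per list by adjusted p in Id1KO_Zrf1KD against Id1KO, and the 3 nearest profiles of each member, of which 1 is not reported here. The members and lists were chosen with earlier results of these data known. Alternatives were normexp background correction (offset 50), quantile normalization, the deposited values, other filters, slide and replicate blocks, 1 row per probe, fits of only the groups compared, and leaving out each array.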

Additional observations from a re-analysis of the deposited data

Results flagged for a closer look

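Of 30 sets of 4 arrays (10 probes in 3 groups), 1 holds an array set apart from the other 3 by Dixon's test at the 95% level, which chance alone gives in about 1 of 20 sets. On the second Sox17 probe, Id1KO_Zrf1KD replicate 3 stood at -0.89, above -1.17 to -1.14 on the other 3 arrays. The brighter Sox17 probe was also highest on that array (-0.05). The larger gap of Id1KO replicate 3 on the brighter Sox17 probe did not pass this test.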

How the results depend on the processing

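Of 510 values of single members under the alternatives, 488 kept their direction and their side of the threshold, 14 lost a call, 2 gained one and 6 changed sign. The 510 include the second probes of Sox17 and Foxa2 in each comparison. The second Foxa2 probe is counted among the 488 kept. It passed the filter through Id1KO_Zrf1KD alone and was below background in WT and Id1KO, so its values there are no support. The sign changes concern values near 0 in Id1KO against WT: Gata6 became -0.0075 with the deposited values, and Sox17 became 0.054 with normexp background correction, 0.08 without WT replicate 4, and 0.11, 0.06 and 0.17 without Id1KO replicate 1, 2 and 4 (range over single arrays left out -0.39 to 0.17). The 2 gained calls are those of Sox17 without Id1KO replicate 3 and by its second probe, an alternative chosen after seeing the data. The number of members lower in Id1KO_Zrf1KD than in WT was 2, and 1 with no filter on dim probes, with the slide as a block, with the replicate block, with only the 2 groups compared, and in 8 of 12 fits without 1 array (range 1 to 2), each time through Foxa1. All 8 members stayed higher in Id1KO_Zrf1KD than in Id1KO under every alternative run. Members called in Id1KO against WT numbered 6 to 7 without single arrays. The replicate numbers did not pair the arrays: same-numbered arrays correlated with a median of -0.20 (range -0.44 to 0.40) over 12 pairs, and 1 of 12 arrays was closest to its own number. Arrays of different groups on the same slide correlated with a median of 0.24 over 16 pairs. With the slide as a block 17186, 17158 and 15509 features were called, and of the members' calls only that of Foxa1 against WT was lost. With the replicate block 15779, 15789 and 14068 features were called, against 16276, 16285 and 14606. The folds of Sox7 and Foxa2 were smaller with normexp and with the deposited values in all 3 comparisons, and the cause was not tested.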
